A study of Homo sapiens with 6 samples.

Results

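The genes described here are those that encode the subunits, activators and assembly factors of the proteasome in 22RV1 cells, chosen as every row whose symbol starts with PSM, a letter from A to G and a number. The rule took 54 of the 26255 genes in the files. Of these, 48 encode proteasome proteins, 5 are antisense RNA genes named after a proteasome gene, and PSMC3IP encodes a cofactor of meiotic recombination that only shares the prefix. 22RV1 is a human cell line of castration-resistant prostate cancer (CRPC), grown in full medium with fetal bovine serum. The 3 control samples received the vehicle DMSO, and the other 3 samples received 10 nM bruceantin (BCT), a plant quassinoid, with RNA taken after 24 h in both arms. The study asked how BCT leads to the loss of HSP90 client proteins, with the ubiquitin-proteasome pathway as the route examined, so the question here was how the RNA of the proteasome itself differed between BCT and DMSO.

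The proteasome degrades proteins that carry ubiquitin chains. Its 20S core particle is a stack of rings, with outer rings of alpha subunits that gate the entry and inner rings of beta subunits, of which PSMB5, PSMB6 and PSMB7 cut peptide bonds. The 19S regulatory cap binds ubiquitin, removes it and unfolds the substrate with a ring of ATPases, and dedicated chaperones assemble both particles. In cells exposed to interferon, the catalytic subunits are replaced by PSMB8, PSMB9 and PSMB10, and the PA28 activator of PSME1 and PSME2 joins this immunoproteasome, which cuts peptides for display on MHC class I.

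Values are FPKM, fragments scaled by transcript length and by all mapped fragments, which can be compared between genes because they are per length. FPKM holds no read counts, so the depth behind a gene is unknown. Relative depth, read from genes of 0.02 to 0.15 FPKM, was 0.878 to 1 in DMSO and 1.05 to 1.13 in BCT. The FPKM of a sample summed to 1169650 to 1572320 in DMSO and to 757534 to 799838 in BCT, and rescaling to equal sums moved the median over all tested genes, on the log2 scale, from -0.04 to 0.72. Directions below are therefore those of the values as deposited, and comparisons between groups of proteasome genes in the same sample do not depend on a factor per sample. As for the label of the cells, summed epithelial and prostate markers (7 genes) lay between 828 and 831 FPKM in DMSO and between 1789 and 1970 in BCT. KLK3, the androgen-driven prostate-specific antigen, lay at 8.03 to 9.76 FPKM in DMSO and at 0.863 to 1.32 in BCT. Summed blood cell markers (4 genes) reached at most 0.588 FPKM, PTPRC among them at most 0.036, and summed stromal and endothelial markers (4 genes) went from 1.499 to 1.61 in DMSO to 5.201 to 6.41 in BCT. The stromal sum was nearly all COL1A1, and the part of these markers in the results below was not tested. In such bulk samples, fewer cells of a type and less RNA per cell cannot be told apart.

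Log2 fold changes of BCT against DMSO were fitted with limma on log2(FPKM + 0.1), on the 12729 genes whose mean over the 6 samples was 1 FPKM or more, and are given with the standard error (SE) and the adjusted p of that fit. A gene was called at a false discovery rate (FDR) below 0.05 and an absolute log2 fold change above 0.85. At an FDR of 0.01 the counts of called proteasome genes were the same. A gene that passed only the FDR is written as higher or lower past the FDR alone. Nothing in the sources says that the 3 samples of an arm were separate cultures, so p-values measure the spread between these samples. Of the 54 genes, 50 were tested. PSMA8, a testis alpha subunit, and PSMB11, a thymus beta subunit, reached at most 0.077 FPKM in any sample, and PSMB8-AS1 and PSMD6-AS2 also lay under the filter.

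As deposited, few proteasome genes passed both thresholds. Among the 46 tested proteasome genes 1 was called lower, PSME1, against 17.8% of all tested genes, and 1 was called higher, PSMD6, against 13.9%. Past the FDR alone, 12 were lower (42.8% of all tested genes were) and 22 were higher (39.3%), and 12 did not pass. The samples of both arms did not overlap for 38 of the 46, against 85.3% of all tested genes. The median absolute log2 fold change was 0.32 over the proteasome genes and 0.58 over all tested genes. The signed medians were 0.13 and -0.04. These counts depended on the scaling. With equal FPKM sums, 24 of the 46 were called higher and none lower. Of all 12729 tested genes, 5614 were then called higher and 668 lower, around a median log2 fold change of 0.72. Past the FDR alone 40 proteasome genes were higher and 1 was lower at that scaling. The share of all tested genes past the FDR alone at that scaling is not given here.

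As deposited, the direction differed by the place of a subunit in the particle. The median log2 fold change was 0.67 for the 6 ATPases of the cap, 0.30 for its 11 other subunits, -0.04 for the 7 alpha subunits, -0.21 for the 7 beta subunits and -0.68 for the 5 immunoproteasome genes, the last 0.092 with equal FPKM sums. It was 0.010 for the 7 assembly factors and 0.41 for PSME3, PSME4 and PSMF1. With equal FPKM sums the medians of the whole core, the whole cap and the assembly factors were 0.72, 1.24 and 0.78. The median of all tested genes was then 0.72, and relative to it the immunoproteasome median lay at -0.63. With quantile normalization the median of the whole core was 0.26. The plot of log2 fold changes by group shows that the ATPases all lay above 0, whereas each ring of the core held genes on both sides of it.

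**Figure D1:**
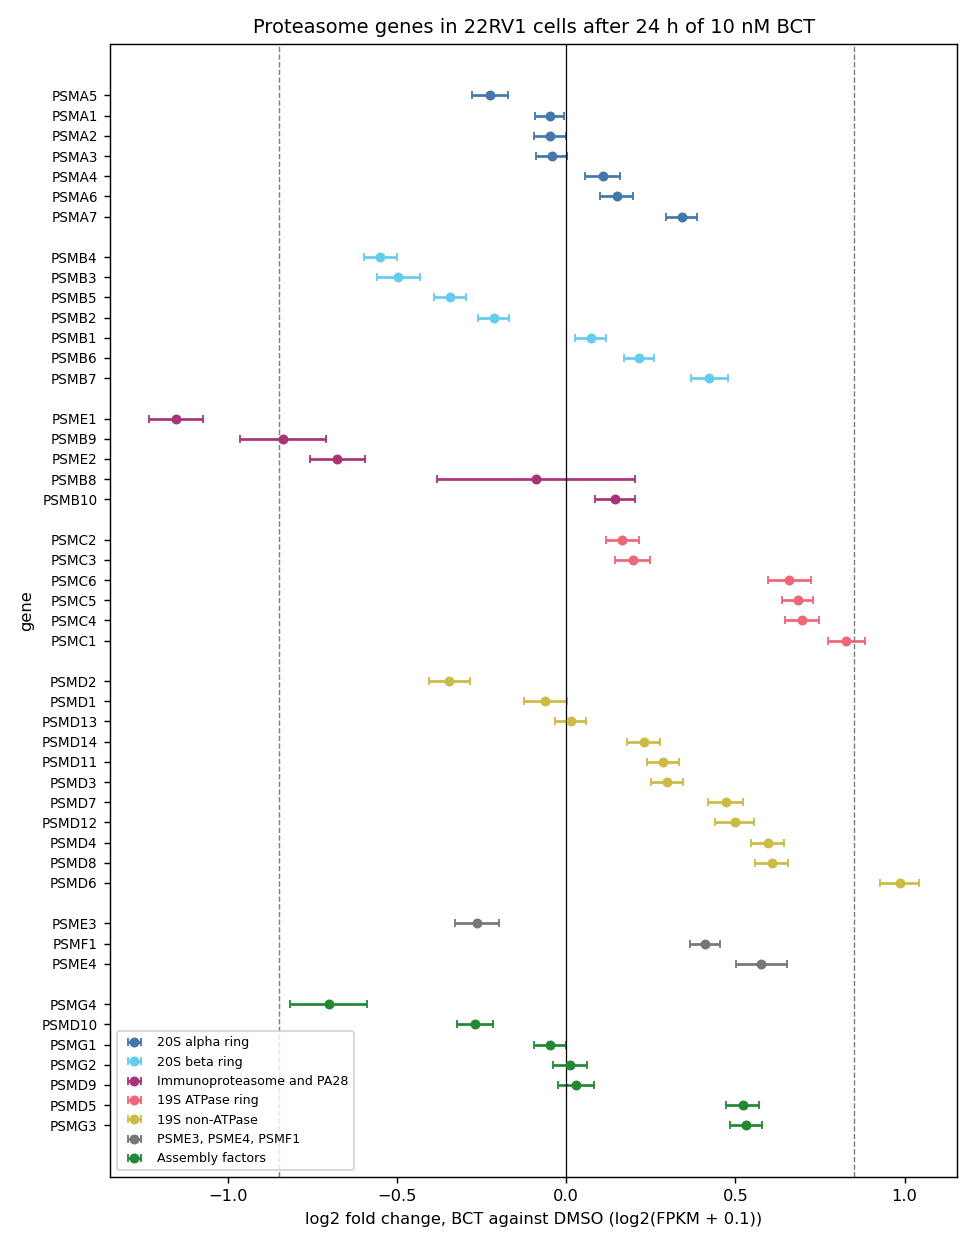
Log2 fold change of BCT against DMSO for the 46 tested proteasome genes, by group, with bars for the SE of limma and dashed lines at the fold change threshold of 0.85 in either direction. PSME1 lies beyond the lower line and PSMD6 beyond the upper one, in values as deposited; rescaling to equal FPKM sums moves every point up, and of the points left of 0 all but PSME1 and PSMB9 then lie right of it.

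The promoters of 5 genes are shown because these genes mark the ends of the response: PSMD6 and PSMC1 had the largest rise among the non-ATPase and ATPase subunits of the cap, PSMB4 the largest fall in the core, and PSME1 and PSME2 encode the subunits of PA28. Each is the 250 bases before the transcript start in RefSeq on GRCh38.p14, written 5′ to 3′ on the strand of the gene. Capitals mark matches, on either strand, to 3 sets of letters: TGACNNNGC, the core of the antioxidant response element that NFE2L1 and NFE2L2 bind, CCAAT, the box of NF-Y, and CCGGAAG, a core of ETS sites. The PSMD6 promoter is at chr3:64023495-64023744 on the minus strand, PSMC1 at chr14:90256303-90256552 on the plus strand and PSMB4 at chr1:151399323-151399572 on the plus strand. PSME1 is at chr14:24135944-24136193 on the plus strand and PSME2 at chr14:24146611-24146860 on the minus strand.
PSMD6: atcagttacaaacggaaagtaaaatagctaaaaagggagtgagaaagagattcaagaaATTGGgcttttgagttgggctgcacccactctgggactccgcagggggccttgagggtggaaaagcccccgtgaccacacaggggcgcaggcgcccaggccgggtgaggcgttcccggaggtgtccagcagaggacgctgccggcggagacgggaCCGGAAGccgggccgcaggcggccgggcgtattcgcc
PSMC1: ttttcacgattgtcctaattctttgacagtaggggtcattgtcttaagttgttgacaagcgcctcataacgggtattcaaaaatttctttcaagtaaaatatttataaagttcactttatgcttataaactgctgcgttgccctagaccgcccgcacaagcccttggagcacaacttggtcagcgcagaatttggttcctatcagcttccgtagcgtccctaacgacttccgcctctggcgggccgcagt
PSMB4: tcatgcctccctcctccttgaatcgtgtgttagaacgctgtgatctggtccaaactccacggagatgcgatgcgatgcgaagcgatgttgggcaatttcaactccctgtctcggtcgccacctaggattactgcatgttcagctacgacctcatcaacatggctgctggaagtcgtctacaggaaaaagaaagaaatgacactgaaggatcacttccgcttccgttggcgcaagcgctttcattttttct
PSME1: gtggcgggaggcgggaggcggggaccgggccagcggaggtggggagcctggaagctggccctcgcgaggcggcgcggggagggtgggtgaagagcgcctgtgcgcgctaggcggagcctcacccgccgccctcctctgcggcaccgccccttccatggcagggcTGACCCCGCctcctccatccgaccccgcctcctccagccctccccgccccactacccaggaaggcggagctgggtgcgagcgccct
PSME2: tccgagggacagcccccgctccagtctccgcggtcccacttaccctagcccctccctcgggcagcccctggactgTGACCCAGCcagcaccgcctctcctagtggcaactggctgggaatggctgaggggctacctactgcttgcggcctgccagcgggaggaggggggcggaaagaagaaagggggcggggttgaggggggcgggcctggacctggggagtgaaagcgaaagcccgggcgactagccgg
In PSMD6 the capitals are a CCAAT box read from the other strand, 192 to 188 bases before the start, and CCGGAAG at 37 to 31. In PSME1 and PSME2 they are TGACNNNGC at 86 to 78 and at 175 to 167 bases before the start. These letters were not in the windows of PSMC1 and PSMB4, which says nothing of the factors.

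A promoter was matched for 42 of the 48 proteasome genes, all but PSMA7, PSMB1, PSMB6, PSMB7, PSMD4 and PSMG3. TGACNNNGC was in 11 of the 42 (26.2%) and in 11% of 27305 RefSeq promoters of the same length. CCGGAAG was in 10 (23.8%) against 8.82%, and CCAAT in 18 (42.9%) against 33%. Genes with TGACNNNGC were found on both sides: 4 were higher past the FDR, 4 were lower and 3 did not pass. With CCAAT 8 were higher, 6 lower and 3 did not pass, and with CCGGAAG 6 were higher, 1 lower and 2 did not pass. Of all 46 tested proteasome genes 22 were higher and 12 lower, and of all tested genes 39.3% and 42.8%. A link between these letters and the direction was not tested. PSMB11 with CCAAT and PSMA8 with CCGGAAG were not tested. These matches describe letters, not bound sites.

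The ATPase ring of the 19S cap threads the unfolded substrate into the core. All 6 genes were higher past the FDR (39.3% of all tested genes were), PSMC2 not after correction for GC content and length. None of the 6 overlapped between the arms, and 85.3% of all tested genes did not either. None was called, because the highest log2 fold change, that of PSMC1, was 0.83. PSMC1 was at 98.5, 96.5 and 92.6 FPKM in DMSO and at 161, 179 and 171 FPKM in BCT. Every BCT sample lay above every DMSO sample. The means were 95.9 ± 2.99 and 170.4 ± 9.16 FPKM (SD, n = 3 each), a 1.78-fold difference (SE 0.055 on the log2 scale, adjusted p = 2.8e-06). PSMC4 (0.70), PSMC5 (0.68) and PSMC6 (0.66) stood close to it in log2 fold change, with adjusted p between 2.7e-06 and 2e-05. PSMC3 (0.20) and PSMC2 (0.17) changed least. PSMC2 was at 80.2, 76.5 and 75.1 FPKM in DMSO and at 83.8, 87.6 and 88.7 FPKM in BCT, with an adjusted p of 0.013. Its log2 fold change was -0.02 after that correction, and the span of PSMC2 in the files is shared with RELN, SLC26A5 and LOC101927870. The span of PSMC5 is shared with FTSJ3, which was also higher past the FDR (log2 fold change 0.73), and reads without strand cannot be told apart there.

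The other cap subunits were more mixed. Of 11, 8 were higher past the FDR, 1 was lower and 2 did not pass. Of all tested genes, 39.3% were higher and 42.8% lower past the FDR. PSMD6, a structural subunit of the lid, was the gene called higher. It was at 77.5, 77.3 and 75.4 FPKM in DMSO and at 141, 159 and 156 FPKM in BCT. The arms did not overlap, with a rise from a mean of 76.8 ± 1.16 to 152 ± 9.83 FPKM (SD, n = 3 each). The log2 fold change was 0.99 (SE 0.057, adjusted p = 1.6e-06). PSMD6 is at chr3:63989698-64009686 (hg19), a span it shares in the files with PSMD6-AS2, whose mean level was 0.17 FPKM in DMSO and 0.344 FPKM in BCT. Tested against the fold change threshold itself, PSMD6 had an adjusted p of 0.11.

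Other lid and receptor genes rose less. PSMD8, of the lid, had a log2 fold change of 0.61 and PSMD4, a ubiquitin receptor, one of 0.60. PSMD12 (0.50), PSMD7 (0.47), PSMD3 (0.30) and PSMD11 (0.29) are structural subunits of the lid. PSMD14, the deubiquitinase of the lid, was at 0.23 with an adjusted p of 0.0023. PSMD1, a scaffold of the base, had a log2 fold change of -0.06 (adjusted p = 0.40) and PSMD13 of the lid 0.01 (adjusted p = 0.79).

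PSMD2, the other scaffold of the base, was the cap gene that was lower past the FDR. It was at 126, 129 and 119.6 FPKM in DMSO and at 106, 96.3 and 93.3 FPKM in BCT. The arms did not overlap, the log2 fold change was -0.35 (SE 0.061, adjusted p = 0.00073), and rescaling to equal FPKM sums turned it to 0.42.

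The core held as many genes that were lower as genes that were higher, within 1 gene. Of 14, 5 were lower past the FDR, 4 were higher and 5 did not pass. Over all tested genes, 42.8% were lower and 39.3% higher past the FDR. The 5 lower core genes all turned positive with samples rescaled to equal sums. The alpha ring changed little: PSMA1, PSMA2 and PSMA3 had log2 fold changes between -0.05 and -0.04, and PSMA4 one of 0.11, with none past the FDR. PSMA6 was at 0.15 (adjusted p = 0.019). PSMA7 had the highest log2 fold change in this ring. PSMA7 was at 266, 259.6 and 268 FPKM in DMSO and at 335, 344 and 328 FPKM in BCT, a log2 fold change of 0.34 (adjusted p = 0.00013). PSMA5, the least abundant alpha subunit, was at 41.8, 38.0 and 39.3 FPKM in DMSO and at 33.8, 34.9 and 33.1 FPKM in BCT, a log2 fold change of -0.23 (adjusted p = 0.0043). Both genes separated the arms without overlap, in opposite directions.

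In the beta ring all 7 genes separated the arms (85.3% of all tested genes did), with 4 lower past the FDR, 2 higher and PSMB1 not past it (log2 fold change 0.07). PSMB4, a subunit without catalytic activity, was the most abundant core gene in every DMSO sample. It was at 475, 447 and 466 FPKM in DMSO and at 329, 312 and 308 FPKM in BCT. The log2 fold change was -0.55 (SE 0.050, adjusted p = 1.4e-05), and in every BCT sample PSMA7 had the highest level of the core genes. PSMB4 is at chr1:151372041-151374412 (hg19). PSMB3 (-0.50) and PSMB2 (-0.21) were also lower past the FDR. With samples rescaled to equal sums PSMB4, PSMB3 and PSMB2 came to 0.22, 0.27 and 0.55.

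The 3 catalytic subunits did not move as one. PSMB5, the chymotrypsin-like subunit, was at 163, 156 and 159 FPKM in DMSO and at 128, 127 and 121 FPKM in BCT. PSMB6, the caspase-like subunit, was at 217, 217 and 225 FPKM in DMSO and at 257, 257 and 252 FPKM in BCT. PSMB7, the trypsin-like subunit, was at 118, 109.8 and 105 FPKM in DMSO and at 145, 153 and 149 FPKM in BCT. None of them overlapped between the arms, with PSMB5 below and PSMB6 and PSMB7 above DMSO. The log2 fold changes were -0.34 for PSMB5 (SE 0.047, adjusted p = 0.00017), 0.21 for PSMB6 (SE 0.044, adjusted p = 0.0017) and 0.42 for PSMB7 (SE 0.056, adjusted p = 0.00013). PSMB5 was above PSMB7 in level in every DMSO sample and below it in every BCT sample, an order that a factor per sample cannot change. The fold change of PSMB5 itself turned to 0.42 with equal sums.

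**Figure D2:**
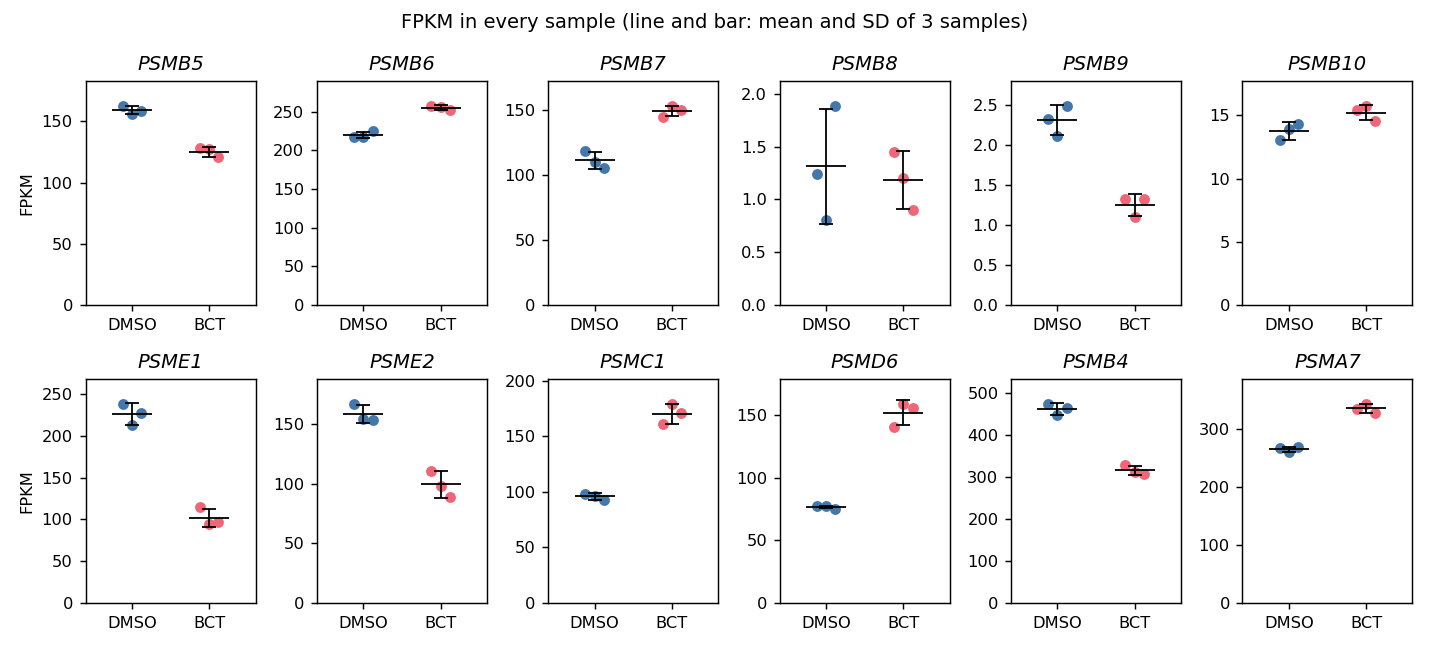
FPKM of the catalytic subunits, their immunoproteasome counterparts, PA28 and the genes at the ends of the core and cap groups in each sample (points), with the mean (line) and SD (bar) of the 3 samples of an arm. PSMB8 overlaps between DMSO and BCT, whereas PSME1 lies at 213 to 239 FPKM in DMSO and at 94.2 to 114 FPKM in BCT; PSMB5, PSMB4 and PSME2, lower here, have positive log2 fold changes with samples rescaled to equal FPKM sums.

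The shift between cap and core was seen within each sample. The median log2 level of the 17 cap genes minus that of the 14 core genes was -1.10, -1.07 and -1.14 in DMSO, and -0.58, -0.53 and -0.54 in BCT. The cap stayed below the core in every sample, and the gap was narrower in all 3 BCT samples. The ATPase ring against the beta ring moved more, from -0.96, -0.97 and -1.09 in DMSO to -0.14, -0.10 and -0.15 in BCT. In FPKM, the median of the ATPase ring was 90.2, 88.5 and 83.9 in DMSO and 132, 143 and 135 in BCT. That of the beta ring was 175, 173 and 178 in DMSO and 145, 153 and 149 in BCT. The difference between the median log2 fold changes of cap and core was 0.52. It lay between 0.32 and 0.55 over the 20 settings tried, with the lowest value under quantile normalization. Changes of the FDR, the variance model, the threshold test and the replicate block cannot move this difference. A factor per sample can move it only through the pseudocount, so not all 20 settings are checks of it. Relative to the median of all tested genes, the median of the cap lay at 0.41 to 0.56 over the 20 settings and that of the core at -0.14 to 0.24. The median of the immunoproteasome genes lay at -0.72 to -0.45 and that of the assembly factors at -0.09 to 0.10.

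**Figure D3:**
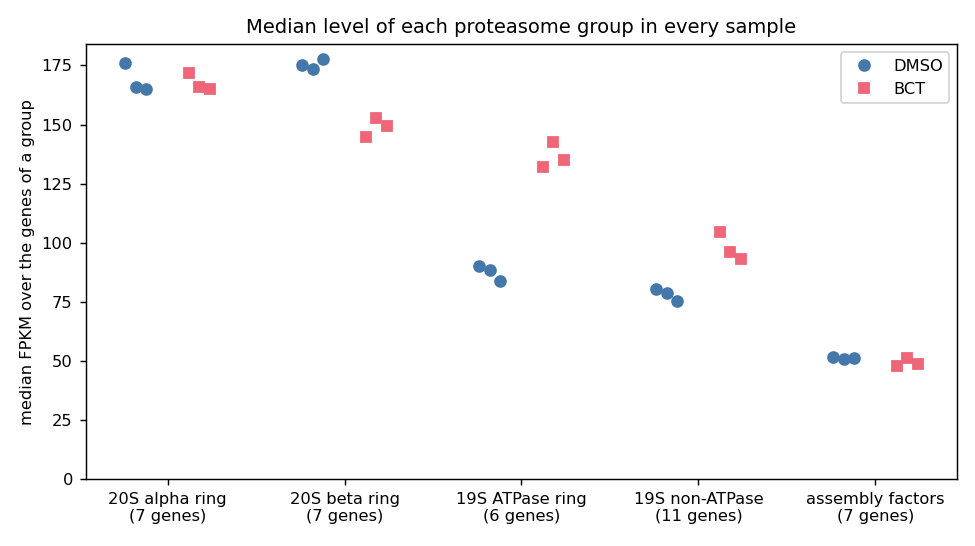
Median FPKM over the genes of each proteasome group, one point per sample, for DMSO (circles) and BCT (squares). The ATPase ring and the other cap genes lie higher in all 3 BCT samples and the beta ring lies lower, as deposited; with equal FPKM sums the beta ring subunits that were lower past the FDR have positive log2 fold changes instead.

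As deposited, the immunoproteasome genes were lower or did not pass. Of 5, 3 were lower past the FDR (42.8% of all tested genes were), PSME1 was called, and none was higher. With equal FPKM sums PSME2 and PSMB9 did not pass, and PSMB8 (0.62) and PSMB10 (0.91) were higher past the FDR. The median of all tested genes was 0.72 at that scaling. PSME1, the alpha subunit of PA28, was at 239, 213 and 228 FPKM in DMSO and at 114, 94.2 and 97.4 FPKM in BCT. Every BCT sample lay far below the lowest DMSO sample. The means were 226 ± 12.9 and 102 ± 10.8 FPKM (SD, n = 3 each). The log2 fold change was -1.15 (SE 0.081, adjusted p = 3.5e-06). It stayed negative with equal sums (-0.39), where it was no longer called. PSME1 is at chr14:24605367-24610797 (hg19), a span shared in the files with EMC9, a gene chosen after its values were seen, which was higher past the FDR (0.52).

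PSME2, the beta subunit of PA28, is the neighbour of PSME1 at chr14:24612574-24615855 (hg19). PSME2 was at 167, 154 and 153 FPKM in DMSO and at 111, 97.8 and 89.1 FPKM in BCT. The arms did not overlap, and the log2 fold change was -0.68 (SE 0.082, adjusted p = 7.5e-05), with 0.09 after rescaling to equal sums. The partners of PA28 were thus both lower as deposited, PSME1 by more in log2 fold change.

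The induced catalytic subunits were low in both arms. PSMB9, beta1i, was at 2.33, 2.11 and 2.49 FPKM in DMSO and at 1.33, 1.10 and 1.32 FPKM in BCT. It did not overlap, with a log2 fold change of -0.84 (SE 0.13, adjusted p = 0.00032), just under the threshold. With equal sums it was -0.11 (adjusted p = 0.67). PSMB8, beta5i, was at 1.25, 0.809 and 1.88 FPKM in DMSO and at 1.45, 1.20 and 0.897 FPKM in BCT. It overlapped, and its SE of 0.29 was larger than its log2 fold change of -0.09. PSMB10, beta2i, was the most abundant of them, at 13.0, 13.9 and 14.3 FPKM in DMSO and at 15.4, 15.7 and 14.5 FPKM in BCT. It missed the FDR with a log2 fold change of 0.14 (adjusted p = 0.051 in limma). With median log ratio scaling PSMB10 was higher past the FDR (0.18, adjusted p = 0.021). With equal sums it was called higher (0.91, adjusted p = 4.3e-08). PSMB8 and PSMB9 are placed in the files on an alternate haplotype of the MHC region of chromosome 6, and PSMB8 shares its span there with TAP1 and PSMB8-AS1, so how their reads were assigned is not known here.

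Against their constitutive counterparts in the same sample, the induced subunits stayed a minority. PSMB9 was at 1.05% of PSMB6 in DMSO and 0.491% in BCT, from a mean log2 ratio of -6.51 ± 0.093 to -7.57 ± 0.15 (SD, n = 3 each). The difference of -1.05 reached the smallest p that an exact two-sided permutation test of 3 against 3 samples can give, 0.1 (0.15 adjusted over the 3 ratios). PSMB10 was at 12.4% of PSMB7 in DMSO and 10.2% in BCT, a difference of -0.28 in log2 ratio with the same exact p of 0.1 (0.15 adjusted). PSMB8 was at 0.824% and 0.941% of PSMB5, a difference of 0.26 with an exact p of 0.7. No such test of these samples could pass 0.05.

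The remaining activators and regulators were split. PSME3, the nuclear PA28 gamma, was at 63.9, 65.8 and 60.6 FPKM in DMSO and at 57.4, 51.6 and 49.7 FPKM in BCT, a log2 fold change of -0.26 (adjusted p = 0.0051) that turned to 0.50 with equal sums. PSME4, the PA200 activator, was at 10.8, 12.9 and 11.3 FPKM in DMSO and at 17.9, 17.6 and 16.7 FPKM in BCT, a log2 fold change of 0.58 (adjusted p = 0.00011). PSMF1, the PI31 regulator, had a log2 fold change of 0.41 (adjusted p = 4.3e-05). The arms did not overlap for any of them, as for 85.3% of all tested genes.

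Assembly factors had members at both ends. PSMG3 and PSMG4 pair as a chaperone of alpha ring assembly, and they moved apart. PSMG3 was at 65.0, 66.9 and 69.4 FPKM in DMSO and at 96.7, 98.7 and 95.8 FPKM in BCT. PSMG4 was at 34.4, 28.2 and 34.5 FPKM in DMSO and at 23.0, 19.04 and 17.6 FPKM in BCT. The log2 fold changes were 0.53 (SE 0.047, adjusted p = 1.2e-05) and -0.70 (SE 0.11, adjusted p = 0.00044), the latter 0.06 with equal sums. PSMG3 stood above PSMG4 in every sample, and by more in each BCT sample. Of the chaperones of the 19S base, PSMD5 was higher past the FDR (0.52, adjusted p = 1.6e-05), PSMD10 was lower (-0.27, adjusted p = 0.0014, and 0.50 with equal sums) and PSMD9 did not pass (0.03). PSMG1 (-0.05) and PSMG2 (0.01), the other pair of core chaperones, did not pass either.

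The members that encode no proteasome protein were mostly low. PSMD5-AS1 was called higher, at 2.18, 2.23 and 2.03 FPKM in DMSO and at 4.08, 4.38 and 4.47 FPKM in BCT, with a log2 fold change of 0.97 (SE 0.084, adjusted p = 1e-05). It lies at chr9:123605320-123616651 (hg19) and moved in the direction of PSMD5. PSMA3-AS1, which shares its span with PSMA3 in the files, was higher past the FDR (0.48), and PSMG3-AS1 was lower (-0.46, and 0.28 with equal sums). PSMC3IP did not pass (-0.12, adjusted p = 0.083), and its span is shared with MLX, which was higher past the FDR (0.33). Spans are also shared by PSMB7 with LOC100129034 (not past the FDR), PSMD1 with HTR2B (not tested), PSMG2 with CEP76 (not past the FDR) and PSME2 with MIR7703 (listed at 0). The kit did not mark strand, so an antisense gene and its partner cannot be told apart where they overlap.

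The genes that work with the proteasome were taken from a list, of which 34 are reported here and 32 were tested. Of these, 4 were called lower and 3 higher, where 17.8% and 13.9% of all tested genes were. Past the FDR alone 15 were lower and 11 higher, where 42.8% and 39.3% of all tested genes were. Among 7 enzymes and factors bound to the proteasome, 4 were higher and 3 lower past the FDR alone. The 3 called higher were ZFAND2A (1.40), ZFAND5 (1.12) and KIAA0368 (0.86). ZFAND2A and ZFAND5 bind the 19S cap, and KIAA0368 is the scaffold ECM29 that holds core and cap together. ZFAND2A was at 23.3 ± 1.01 FPKM in DMSO and 62.2 ± 7.26 FPKM in BCT (SD, n = 3 each), with an adjusted p of 1.9e-06. Of the 4 regulators of subunit transcription, 1 was lower and 2 higher past the FDR. NFE2L1, the factor that induces proteasome genes when proteasome activity is short, was at 42.7, 44.7 and 42.3 FPKM in DMSO and at 38.2, 35.0 and 34.1 FPKM in BCT. Its log2 fold change was -0.27 (adjusted p = 0.0021), and it turned to 0.49 with equal sums.

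UBB, a gene of ubiquitin itself, was called lower (-0.99, adjusted p = 1.3e-06), from 908 ± 41.1 to 457 ± 15.1 FPKM (SD, n = 3 each), with no overlap between the arms and -0.22 with equal sums, where it was not called. Of 8 shuttles and segregase genes, 3 were lower and 2 higher past the FDR, and UBQLN4, a shuttle factor, was called lower (-0.95). UBQLN4 lost its call with equal sums (-0.19), without MIR6087 in the sums (-0.57), after the GC and length correction (-0.78) and when tested against the threshold (adjusted p = 0.34).

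Genes of peptide loading, the step after the immunoproteasome, were lower or did not pass. Of 9 listed genes 7 were tested, 5 were lower past the FDR and none was higher, as deposited. Of all tested genes, 42.8% were lower past the FDR, and such counts drop with equal FPKM sums. B2M, the light chain of MHC class I, was called lower (-1.09, adjusted p = 1.5e-06), from 324 ± 21.9 to 151 ± 6.41 FPKM (SD, n = 3 each). It lost its call with equal sums (-0.33), without MIR6087 in the sums (-0.71) and with quantile normalization (-0.76). TAP2, a subunit of the peptide transporter, was called lower at -1.94 (SE 0.17, adjusted p = 1.2e-05), and stayed below 0 in every setting in which it was tested. TAP1, its partner and the neighbour of PSMB9, did not pass (-0.13). TAP1 was named after its values were seen.

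The subunits and assembly factors with other names were chosen after their values were seen. ADRM1, a ubiquitin receptor of the cap, was higher past the FDR (0.57), as were PAAF1, a chaperone of the 19S base (0.57), and POMP, the maturation factor of the core (0.27). SHFM1, the small lid subunit SEM1, was lower (-0.58, and 0.19 with equal sums).

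**Figure D4:**
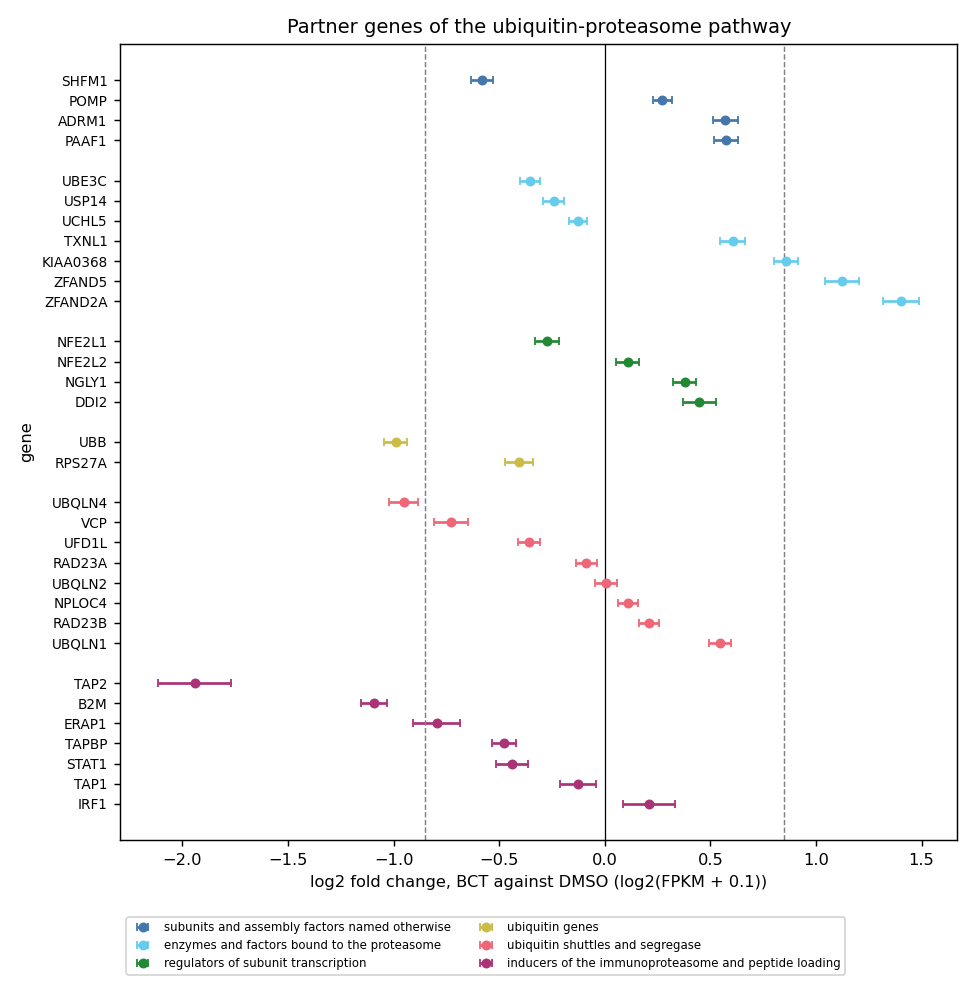
Log2 fold change of BCT against DMSO for the 32 tested partner genes reported here, by role, with bars for the SE of limma and dashed lines at 0.85 in either direction. ZFAND2A and ZFAND5 lie farthest to the right and TAP2 and B2M farthest to the left, as deposited; NFE2L1 and SHFM1 move to the right of 0 with equal FPKM sums.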

How the data were processed

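RNA of 3 DMSO and 3 BCT samples was sequenced. According to the methods, the labels and the processing notes of the submitters, the authors trimmed reads with Trimmomatic 0.38, aligned with HISAT2 to hg19 and quantified with StringTie. The notes also list CASAVA and HTSeq. The deposited values are FPKM for each gene, scaled by length and mapped fragments. The annotation is not given in the sources used here. From the deposited FPKM, linear models were fitted to log2(FPKM + 0.1) of genes whose mean was 1 FPKM or more (limma 3.58.1, eBayes with trend; R 4.3.3), with Benjamini-Hochberg adjustment over all 12729 of them. The fit was tested on simulated data. Ratios of subunits were compared with exact two-sided permutation tests.

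Members and gene lists were chosen with earlier results of these data known. Every member is accounted for. Values in every sample are given for catalytic subunits, called members and the members with the highest and lowest log2 fold change of each group; of the partner list, called genes and NFE2L1 are named, and some of its genes are not reported here. Alternatives covered the pseudocount, the filter, 4 scalings, the FDR, the variance model, the threshold test, a replicate block and each sample left out. A correction for GC content and length (11680 genes with values, 49 of the 50 tested members) was chosen after seeing the data. Positions on hg19 are the deposited ones with 1 added to the start: that base is a GENCODE transcript start for 7961 of 22088 matched genes, against 857 for the deposited start. Genes whose spans are shared in the files are named in the report.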

Additional observations from a re-analysis of the deposited data

How the results depend on the processing

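The scaling between samples decided most changes. Rescaling to equal FPKM sums moved the median over all tested genes to 0.72 and called 668 of them lower and 5614 higher (2263 and 1764 as deposited); without MIR6087 in the sums the median was 0.34, with 1208 and 3370 called. With equal sums, proteasome genes called lower and higher numbered 0 and 24, those past the FDR alone 1 and 40, and the medians of core, cap, immunoproteasome and assembly genes were 0.72, 1.24, 0.092 and 0.78. Without MIR6087 these were 0 and 12, 5 and 35, and 0.34, 0.86, -0.29 and 0.40. Quantile normalization called 7 higher, with medians of 0.26, 0.59, -0.42 and 0.13. Median log ratio scaling called 2 higher (PSMC1 joined at 0.87), with -0.0074 for the core and 0.048 for assembly. The GC and length correction, chosen after seeing the data, gave -0.15, 0.40 and -0.10 for core, cap and assembly. A pseudocount of 0.01 called 2 lower, and a pseudocount of 1 gave -0.56 for the immunoproteasome. The test against the fold change threshold called 0 higher, where PSMD6 had an adjusted p of 0.11.

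With equal sums, the log2 fold changes that changed sign were PSMA1 0.72, PSMA2 0.72, PSMA3 0.73, PSMA5 0.54, PSMB2 0.55, PSMB3 0.27, PSMB4 0.22, PSMB5 0.42, PSMB8 0.62, PSMC3IP 0.65, PSMD1 0.71, PSMD10 0.50, PSMD2 0.42, PSME2 0.092, PSME3 0.50, PSMG1 0.72, PSMG3-AS1 0.28, PSMG4 0.063, NFE2L1 0.49 and SHFM1 0.19. Without MIR6087 they were PSMA1 0.34, PSMA2 0.34, PSMA3 0.34, PSMA5 0.16, PSMB2 0.17, PSMB5 0.042, PSMB8 0.27, PSMC3IP 0.27, PSMD1 0.32, PSMD10 0.12, PSMD2 0.041, PSME3 0.12, PSMG1 0.34 and NFE2L1 0.11. Quantile normalization changed the sign of PSMA1 (0.26), PSMA2 (0.27), PSMA3 (0.16), PSMD1 (0.047), PSMG1 (0.056) and the PSMB8 to PSMB5 ratio (-0.042), and the GC correction that of PSMC2 (-0.020), PSMA4 (-0.016), PSMB1 (-0.023), PSMB8 (0.00073) and PSMG2 (-0.11). PSME1 stayed negative but lost its call with equal sums (-0.39) and without MIR6087 (-0.77), and PSMD5-AS1 lost its call with a pseudocount of 1 (0.76) and in the threshold test. KIAA0368 lost its call with a pseudocount of 1, in the threshold test and without DMSO replicate 1, DMSO replicate 3, BCT replicate 2 or BCT replicate 3 (0.83 to 0.85).

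Leaving out each sample in turn gave 1 to 2 proteasome genes called lower and 1 to 2 called higher. PSMB9 joined without DMSO replicate 2 (-0.90), BCT replicate 1 (-0.88) or BCT replicate 3 (-0.88), and PSMC1 without BCT replicate 1 (0.87). The immunoproteasome median then ranged from -0.76 to -0.60 and the PSMB8 to PSMB5 ratio from -0.012 to 0.54, the negative value without DMSO replicate 2. The log2 fold changes, none past the FDR, of PSMB8 (-0.37 to 0.19), PSMD13 (-0.0049 to 0.031), PSMD9 (-0.0041 to 0.055) and PSMG2 (-0.010 to 0.045) also changed sign in this way. Deviations from the arm means correlated at r = 0.12, 0.033 and 0.034 between samples of the same number. Between samples of different numbers the mean r was -0.031. With 3 samples per arm these values cannot decide whether the numbers mark pairs. With a replicate block 1 proteasome gene was called lower and 1 higher. Over all settings, 1059 of 1189 single-gene values for 63 genes had the same direction and call as reported. Of the others, 22 lost a call, 56 gained one and 52 changed sign. No depth per gene is known, and values near the filter, such as PSMB8, are the least precise.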
